A study of Mus musculus with 14 samples.

Results

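The spliceosome removes introns from pre-messenger RNA, and this account follows 55 mouse genes for its Lsm, Snrp, Sf3, Prpf, Srsf and U2af proteins in oocytes that overexpressed Rnaseh1. The genes were chosen by symbol (Lsm1 to Lsm8, and all symbols that begin with Snrp, Sf3a or Sf3b, Prpf, Srsf or U2af followed by a number where the family has one), as protein-coding genes listed in both deposited expression tables with at least 1 TPM (a length-normalised transcript abundance, scaled to the same sum in every library) in at least 2 libraries of a table. They were 55 of 35389 gene identifiers in the first table and of 35341 symbols in the second. By subfamily there were 8 Lsm, 12 Snrp, 9 Sf3, 13 Prpf, 10 Srsf and 3 U2af genes. Just inside the limit was Prpf19, which reached 1 TPM in 1 library of the first table and in 5 of the second. Outside it was Srsf12, which was listed at 0 in every library of the first table and at no more than 0.22 TPM in the second.

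Oocytes with a surrounded nucleolus (SN, a late and largely silent state) that overexpressed Rnaseh1 were compared with SN oocytes that overexpressed the red fluorescent protein mCherry, and oocytes with a non-surrounded nucleolus (NSN, earlier and transcribing) were compared in the same way. A second table, called the rescue set by its labels, held oocytes with Rnaseh1 plus Supt6, with Rnaseh1 alone and with mCherry, and gave no nucleolar stage. Rnaseh1 is an enzyme that cuts the RNA strand of RNA:DNA hybrids, the core of R-loops, and Supt6 (Spt6) is an elongation factor that binds RNA polymerase II and histones. Each of the 7 groups had 2 libraries, 8 libraries in the first table and 6 in the rescue set. No strain, age or number of oocytes per library was given by the labels, nor whether the paired libraries stem from separate animals, so the p-values measure the spread between libraries, which may be technical.

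Small nuclear ribonucleoproteins (snRNPs) are built on short nuclear RNAs. The Sm proteins (Snrpb, Snrpn, Snrpd1, Snrpd2, Snrpd3, Snrpe, Snrpf and Snrpg) form a ring around the U1, U2, U4 and U5 RNAs, and the Lsm2 to Lsm8 proteins form a similar ring at the end of U6 RNA. With Lsm1 in place of Lsm8, the Lsm ring works in the cytoplasm in decapping of messenger RNA. SF3a and SF3b belong to the U2 snRNP and hold the branch point, U2AF binds the 3′ splice site, most Prpf proteins serve in the tri-snRNP and at the catalytic core, and Srsf proteins bind exons and help to choose splice sites. Growing oocytes make and store messenger RNA, and transcription stops before maturation, so a transcript level at the end of growth reflects synthesis, storage and decay together.

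Between 10036 and 11811 genes reached 1 TPM in each NSN or SN library, and between 10892 and 12230 in each rescue library, and read depth cannot be recovered from TPM. Rnaseh1 stood at 1361 and 1083 TPM in SN oocytes with Rnaseh1 against 81.0 and 131 TPM with mCherry, and at 745 and 229 TPM in NSN oocytes with Rnaseh1 against 137 and 108 TPM with mCherry. In the rescue set it stood at 2270 and 2017 TPM with Rnaseh1 plus Supt6, at 1243 and 625 TPM with Rnaseh1 and at 125 and 114 TPM with mCherry. Supt6 stood at 28.16 and 20.97 TPM with Rnaseh1 plus Supt6, at 3.01 and 2.55 TPM with Rnaseh1 and at 3.28 and 3.14 TPM with mCherry. All 10 oocyte markers examined, among them Zp3 and Gdf9, were above 1 TPM in all 14 libraries. Of 20 markers of granulosa and other somatic cells, 3 to 5 were above 1 TPM per library, chiefly Cyp19a1, Kitl, Nr5a2 and Pecam1, while Foxl2, Amh, Amhr2, Ptx3 and Wt1 were listed at 0 in all 14. In the NSN and SN set the 2 libraries of NSN Rnaseh1 and the 2 of SN mCherry lay far apart, and values are given for each library there. With 2 libraries in a group, neither can be named as the deviating one.

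Together, the 55 transcripts made up 1.27% ± 0.07 (SD, n = 2) of all transcripts in the Rnaseh1 oocytes of the rescue set, against 0.49% ± 0.02 in mCherry oocytes. The gain lay mainly in the Lsm and Snrp sums, and within these in a few abundant genes. Mean levels with Rnaseh1 against mCherry were 2388 and 596 TPM for Lsm3 and 3090 and 233 TPM for Lsm7. They were 2047 and 609 TPM for Snrpe and 1200 and 351 TPM for Snrpd1. Not all genes of these 2 subfamilies rose. The Lsm genes summed to 6482 ± 370 TPM with Rnaseh1 against 1330 ± 101 TPM with mCherry, and the Snrp genes to 4724 ± 356 TPM against 1884 ± 95.2 TPM. By contrast, the Sf3 genes summed to 366 ± 3.64 TPM with Rnaseh1 against 483 ± 16.2 TPM with mCherry, and the U2af genes to 255 ± 20.7 TPM against 395 ± 9.57 TPM. The Prpf sum was 475 and 481 TPM with Rnaseh1 and 536 and 542 TPM with mCherry, and the Srsf sum 391 ± 19.2 TPM with Rnaseh1 and 268 ± 8.73 TPM with mCherry. TPM divides by transcript length, so these sums are shares of transcripts. The number of oocytes per library is not given, and where a library pools oocytes, fewer that carry a transcript and less of it per oocyte cannot be told apart.

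**Figure D1:**
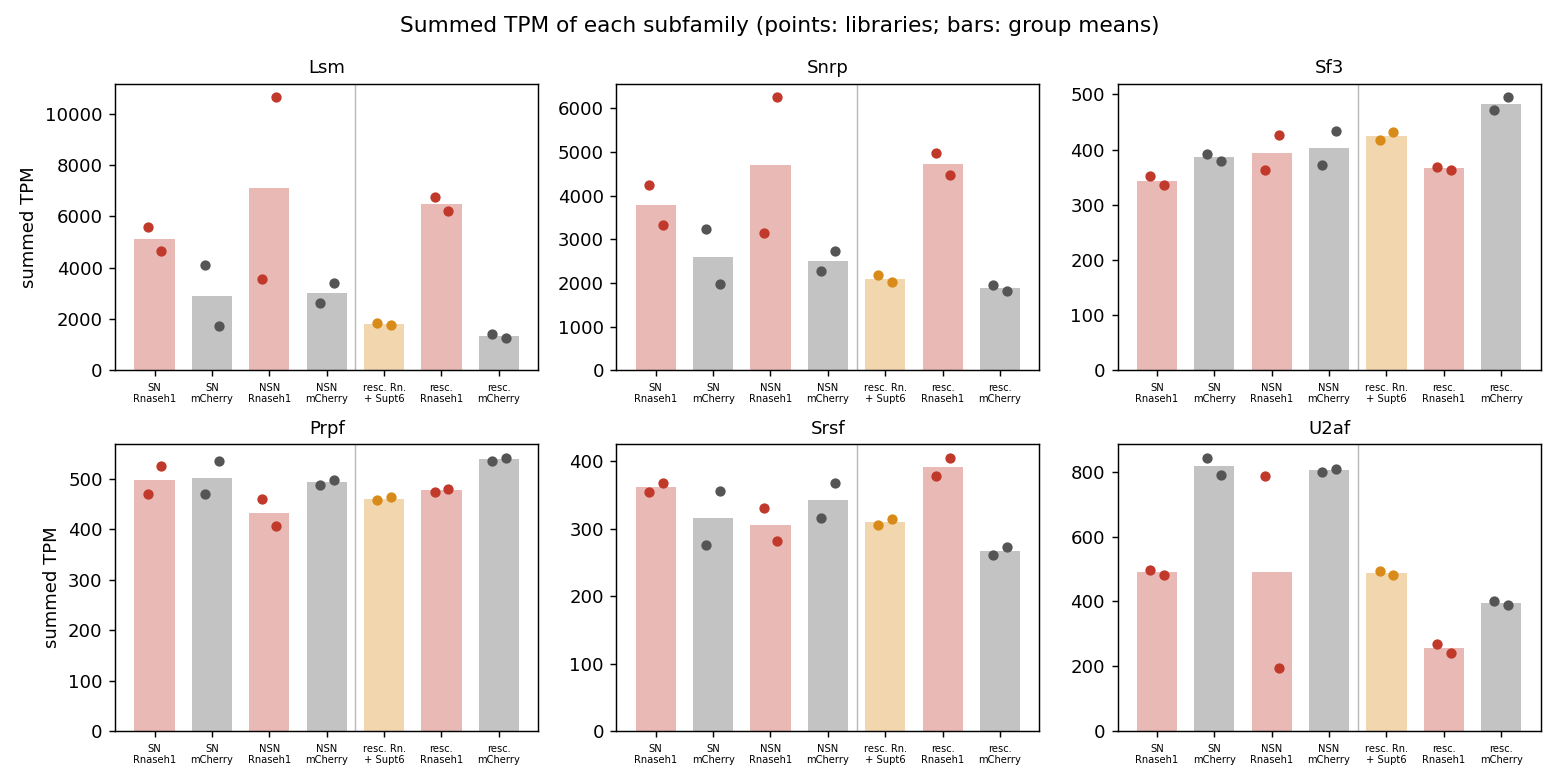
Summed TPM of the genes of each subfamily in every library, with points for libraries and bars for group means; the line in each panel divides the NSN and SN set from the rescue set, which were deposited as separate tables. In the rescue set, the Lsm and Snrp sums of the Rnaseh1 libraries lie above those of the other groups, while the U2af sum lies below.

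The question put by the first rescue comparison is how Rnaseh1 overexpression altered these transcripts. With Rnaseh1, 21 of the 55 genes rose and 23 fell against mCherry (limma on log2(TPM + 1), Benjamini-Hochberg adjusted p under 0.05 over all 12859 tested genes). Of all tested genes, 20.3% rose and 46.2% fell, so the transcriptome leaned downward, with a median log2 fold change of -0.52, and the median of the 55 genes, -0.01, lay 0.51 above it. With a trend in transcript GC content removed from all genes, that distance was 0.01. The subfamilies went different ways. Of the Lsm genes 6 rose and 0 fell (median log2 fold change 1.15), of the Snrp genes 7 rose and 4 fell (0.60) and of the Srsf genes 4 rose and 2 fell (0.22). Of the Sf3 genes 1 rose and 7 fell (-1.07), of the Prpf genes 2 rose and 8 fell (-1.07), and of the U2af genes 1 rose and 2 fell (-1.18). With the GC trend removed, the medians were 1.22 for Lsm, 0.55 for Snrp and 0.53 for Srsf genes. They were -0.36 for Sf3, -0.70 for Prpf and 0.04 for U2af genes. In that fit 1 Sf3 gene rose and 5 fell, and 1 U2af gene rose and 0 fell. These are counts and medians, and the difference between subfamilies was not tested.

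The direction of the whole transcriptome moved these counts. After the libraries were centred on the median of genes with a mean of at least 10 TPM, which brought the median of all genes to 0.06, 29 of the 55 rose and 16 fell, beside 33.4% and 30.3% of all genes. Quantile normalization gave 28 that rose and 17 that fell, beside 32.8% and 30.8% of all genes. In both of these fits 8 of 8 Lsm genes rose, 6 of 7 Sm ring genes rose and Srsf genes only rose (6 of 10), and the Sf3 genes stayed mostly lower, with 5 that fell after centring and 6 after quantile normalization. In every alternative setting that was run, 15 genes rose (Lsm3, Lsm4, Lsm6, Lsm7, Lsm8, Snrpa1, Snrpd1, Snrpd2, Snrpe, Snrpg, Sf3b6, Srsf2, Srsf3, Srsf10 and U2af1) and 10 fell, among them Snrpa, Snrpb, Snrpc, Snrpn, Sf3b3, Sf3b4, Prpf6, Prpf8 and Prpf31.

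**Figure D2:**
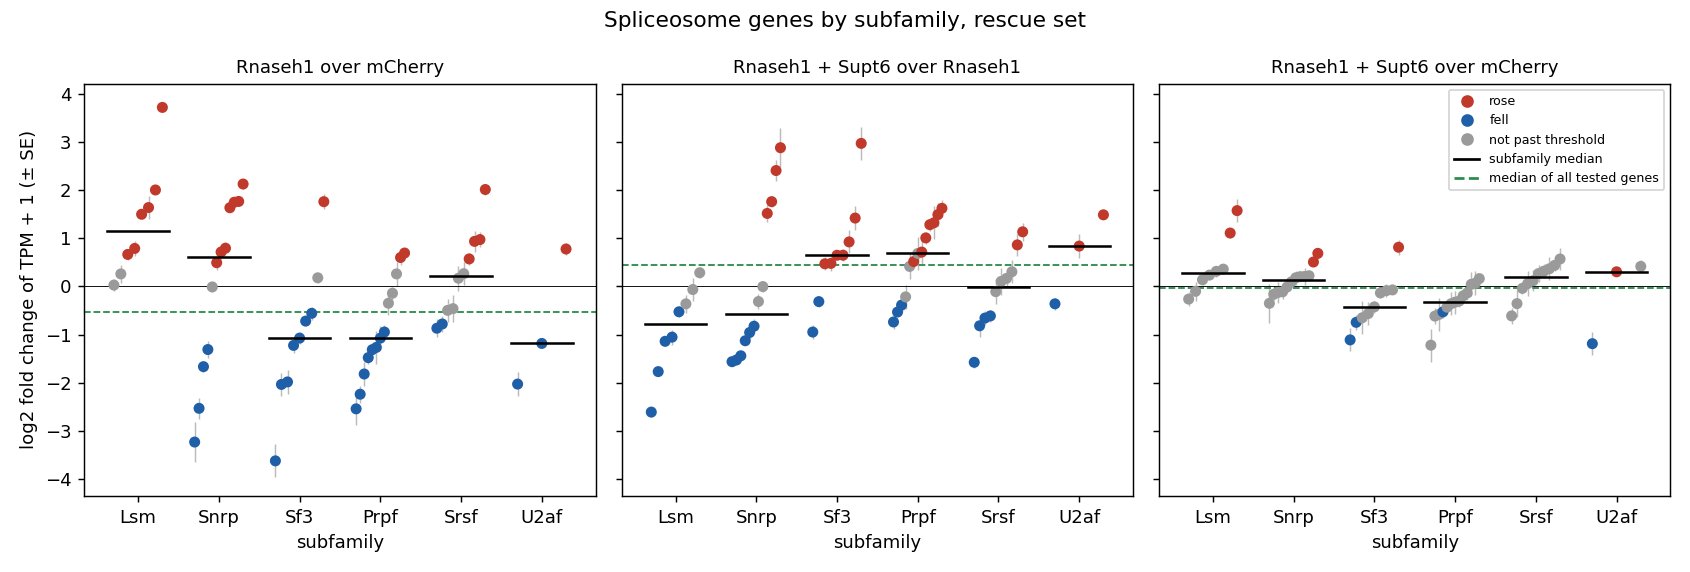
Log2 fold change of TPM + 1 (points, ± SE) of each gene by subfamily in the 3 comparisons of the rescue set, coloured by limma's call, with black bars for subfamily medians and a dashed line for the median of all tested genes. In the left panel 6 of 8 Lsm genes are called higher while 7 of 9 Sf3 genes are called lower; in the right panel most genes are not past the threshold.

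Lsm7 (ENSMUSG00000035215.9, chromosome 10, 80852821 to 80855209, minus strand, GRCm38), a subunit shared by the nuclear and cytoplasmic Lsm rings, changed the most among the 55 genes. It stood at 3271 and 2910 TPM in Rnaseh1 oocytes against 240 and 226 TPM in mCherry oocytes, so that its log2 fold change was 3.72 (SE 0.10, limma adjusted p = 6.9e-07). Lsm3 (ENSMUSG00000034192.5, chromosome 6, 91515928 to 91522625, plus strand), also shared by both rings, stood at 2424 and 2352 TPM against 641 and 551 TPM (log2 fold change 2.01, SE 0.08, adjusted p = 2.1e-06). Both Rnaseh1 libraries were several times higher than both mCherry libraries for these genes. Lsm6 rose by 1.50 (612 and 549 TPM against 218 and 192 TPM) and Lsm5 by 0.67 (265 and 240 TPM against 155 and 162 TPM). Lsm8, the subunit found in the nuclear ring alone, rose by 0.79, with 37.1 and 34.4 TPM against 19.9 and 20.6 TPM. Lsm1, its counterpart in the cytoplasmic ring, stood at 24.9 and 33.0 TPM with Rnaseh1 and 27.3 and 20.7 TPM with mCherry, so its groups overlapped (0.26, SE 0.19, adjusted p = 0.27). Lsm2 likewise overlapped, with 94.7 and 88.2 TPM against 98.4 and 81.6 TPM (0.03, SE 0.12, adjusted p = 0.84).

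Levels within the Lsm ring were far from equal. In rescue mCherry oocytes Lsm3 had the highest mean, 596 TPM, and Lsm4 the lowest, 3.93 TPM, although the ring holds 1 copy of each protein. Lsm4 (ENSMUSG00000031848.15, chromosome 8, 70673248 to 70678752, plus strand) rose with Rnaseh1 to 14.4 and 14.0 TPM, against 3.11 and 4.75 TPM with mCherry (log2 fold change 1.64, SE 0.23, adjusted p = 0.00065). In the separately deposited NSN and SN table the same gene stood at 76.8 and 121 TPM in SN mCherry oocytes and at 125 and 81.8 TPM in NSN mCherry oocytes.

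The Sm ring split along one position. Among its 7 shared subunits 6 rose and Snrpb, which encodes SmB, fell. Snrpe (ENSMUSG00000090553.8, chromosome 1, 133603871 to 133610291, minus strand) had 2116 and 1977 TPM in Rnaseh1 oocytes against 652 and 566 TPM in mCherry oocytes (log2 fold change 1.75, SE 0.10, adjusted p = 7.2e-06). Snrpd2 (ENSMUSG00000040824.3, chromosome 7, 19149722 to 19153542, plus strand) had 316 and 268 TPM against 68.6 and 63.1 TPM, a change of 2.13 (SE 0.11, adjusted p = 4.6e-06). In both genes the libraries of the groups were well apart. Snrpd1 rose by 1.77 (1277 and 1123 TPM against 365 and 337 TPM), while Snrpg, Snrpf and Snrpd3 rose by 0.79, 0.72 and 0.49. Snrpb (ENSMUSG00000027404.15, chromosome 2, 130171414 to 130179403, minus strand) stood at 1.58 and 2.53 TPM with Rnaseh1 against 15.5 and 17.4 TPM with mCherry (log2 fold change -2.53, SE 0.22, adjusted p = 5.6e-05). Snrpn, the imprinted paralogue that takes the SmB position in brain, also fell, with 9.63 and 11.2 TPM against 24.3 and 30.4 TPM (-1.31, SE 0.17, adjusted p = 0.0004). Snrpn overlaps Snurf and Gm38393 on the same strand, so its reads cannot be fully separated from theirs. The genes of the ring also differed in level. In mCherry oocytes Snrpe was near 609 TPM and Snrpb near 16.5 TPM on average.

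**Figure D3:**
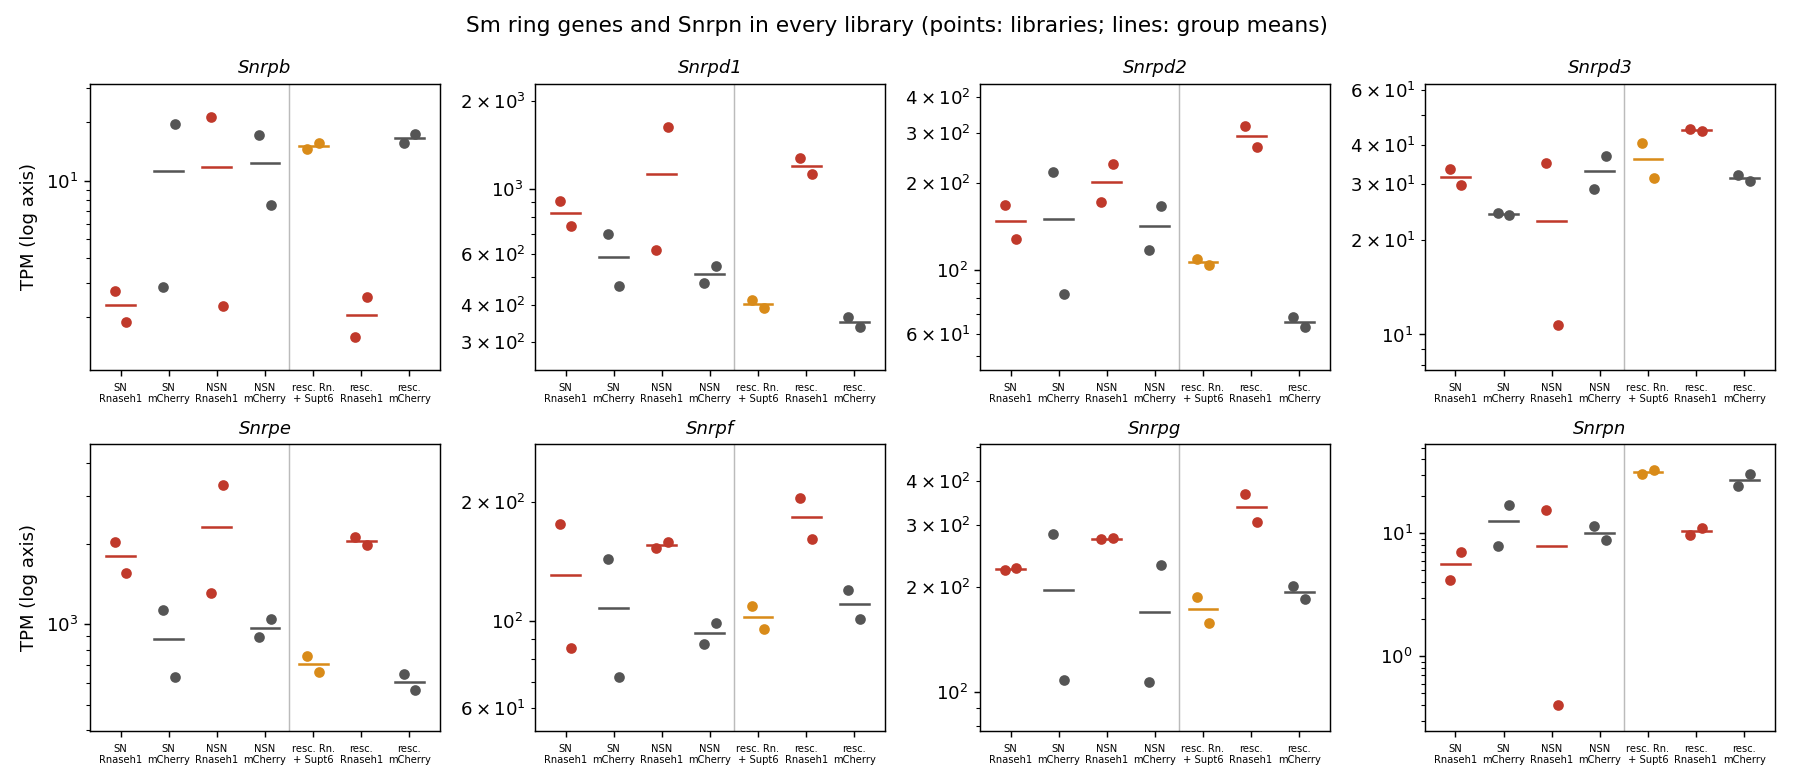
TPM of the 7 Sm ring genes and Snrpn in every library on log axes, with points for libraries and lines for group means; the grey line divides the separately deposited sets. In the rescue set the Rnaseh1 libraries of Snrpd1, Snrpd2 and Snrpe lie above the other groups, those of Snrpb and Snrpn below, and the points of NSN Rnaseh1 oocytes lie far apart for several genes.

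Proteins that belong to a single snRNP went different ways. Snrpa (ENSMUSG00000061479.15, chromosome 7, 27187005 to 27196271, minus strand), the U1-A protein that binds a loop of U1 RNA, stood at 14.0 and 4.42 TPM with Rnaseh1 against 79.9 and 88.0 TPM with mCherry (-3.23, SE 0.41, adjusted p = 0.00037). Snrpc, the U1-C protein that helps U1 to hold the 5′ splice site, fell by 1.67 (31.7 and 31.9 TPM against 96.8 and 110 TPM, adjusted p = 1.6e-05). Snrpa1, the U2-A′ protein of the U2 snRNP, rose by 1.64 (415 and 397 TPM against 131 and 129 TPM, adjusted p = 4e-06). Its partner Snrpb2, the U2-B″ protein, stood at 178 and 146 TPM with Rnaseh1 and 165 and 160 TPM with mCherry, and its groups overlapped (-0.01, SE 0.11). Both U1-specific members of the family thus fell, while the U2-specific pair held 1 gene that rose and 1 that did not pass the threshold.

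Sf3b4 (ENSMUSG00000068856.3, chromosome 3, 96172332 to 96177564, plus strand), a subunit of SF3b that contacts RNA near the branch point, had the largest fall among the 55 genes. It stood at 2.03 and 0.42 TPM in Rnaseh1 oocytes against 24.5 and 24.6 TPM in mCherry oocytes (-3.62, SE 0.35, adjusted p = 8.3e-05). Sf3b3, a scaffold subunit, fell by 1.98 (11.6 and 15.0 TPM against 43.3 and 70.2 TPM), and Sf3b2 by 1.07. Sf3b5 fell by 0.56, while Sf3b1, which clamps the branch helix, stood at 87.3 and 99.0 TPM against 84.2 and 79.8 TPM (0.18, SE 0.11, adjusted p = 0.17). Sf3b6 (ENSMUSG00000037361.8, chromosome 12, 4817544 to 4827659, plus strand), the p14 subunit at the branch point, was the exception, with 108 and 88.3 TPM against 31.4 and 25.1 TPM (1.76, SE 0.15, adjusted p = 5.1e-05). All 3 SF3a genes fell. Sf3a1 fell by 1.22 and Sf3a3 by 0.72, and Sf3a2 was listed at 0.00 and 0.03 TPM with Rnaseh1 against 3.01 and 3.32 TPM with mCherry (-2.04, SE 0.24, adjusted p = 0.00024). Sf3a2 is low in every group and overlaps Plekhj1 on the opposite strand, and whether the counting used strand is not stated.

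Start regions of the Sf3 genes were inspected because this subfamily leaned downward while Sf3b6 rose. RefSeq (GRCm38.p6) gave a window from 250 bases before to 50 bases after the start site for 46 of the 55 genes. For some genes that site lies well downstream of GENCODE's gene start. Among them are Prpf6 (181601319 against 181591868), Snrpc (27840087 against 27838150) and Sf3a2 (80798735 against 80798198). Which start site the oocytes use was not tested. The exact string CCGGAAG, on either strand, is a form of the sites of ETS family factors and is called the core here. It was present in 6 of the 7 Sf3 windows, against 1 of 6 Lsm, 4 of 10 Snrp, 3 of 11 Prpf, 4 of 10 Srsf and 0 of 2 U2af windows. It stood in 39.1% of the windows of the 46 genes, 18.1% of 9689 genes tested in the rescue set and 9.12% of all 27025 windows. For the 46 genes the RefSeq start site nearest GENCODE's gene start was taken, and for other genes the first listed. Shares of the 46 genes and of all genes are therefore not fully alike. Some ring genes that rose, Lsm5, Snrpe and Snrpg, hold the core in the window but outside the 100 bases before the start site, and are not printed. Those 100 bases follow for the 5 Sf3 genes with the core in that stretch and for Snrpc. They also follow for 3 ring genes that rose and were picked as lacking this exact string in the whole window. Shorter or variant forms were not searched, and the Snrpd2 stretch holds CGGAAG. The core is in capitals.

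Sf3a1, fell (chr11:4160254-4160353, plus strand): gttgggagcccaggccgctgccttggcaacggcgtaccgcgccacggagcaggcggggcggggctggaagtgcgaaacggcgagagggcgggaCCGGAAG
Sf3a2, fell (chr10:80798635-80798734, plus strand): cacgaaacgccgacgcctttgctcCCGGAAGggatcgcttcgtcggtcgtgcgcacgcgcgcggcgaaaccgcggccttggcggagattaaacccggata
Sf3a3, fell (chr4:124714761-124714860, plus strand): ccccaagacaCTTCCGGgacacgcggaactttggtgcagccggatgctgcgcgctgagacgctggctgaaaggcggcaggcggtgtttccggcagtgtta
Sf3b2, fell (chr19:5295456-5295555, minus strand): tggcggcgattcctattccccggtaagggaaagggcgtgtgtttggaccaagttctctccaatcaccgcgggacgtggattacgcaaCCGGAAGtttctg
Sf3b6, rose (chr12:4817508-4817607, plus strand): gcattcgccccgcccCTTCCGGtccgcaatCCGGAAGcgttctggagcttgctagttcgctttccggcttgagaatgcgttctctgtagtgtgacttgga
Snrpc, fell (chr17:27839987-27840086, plus strand): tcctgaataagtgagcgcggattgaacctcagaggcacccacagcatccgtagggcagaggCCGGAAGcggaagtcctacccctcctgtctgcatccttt
Lsm3, rose (chr6:91515935-91516034, plus strand): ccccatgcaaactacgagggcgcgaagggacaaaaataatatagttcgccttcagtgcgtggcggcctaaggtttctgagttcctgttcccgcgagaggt
Lsm7, rose (chr10:80855210-80855309, minus strand): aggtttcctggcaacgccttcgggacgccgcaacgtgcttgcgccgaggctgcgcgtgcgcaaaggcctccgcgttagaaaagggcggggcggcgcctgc
Snrpd2, rose (chr7:19149738-19149837, plus strand): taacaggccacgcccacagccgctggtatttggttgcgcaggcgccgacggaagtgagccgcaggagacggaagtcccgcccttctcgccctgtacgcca

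Among the spliceosome genes with a window, 10 of 17 that fell with Rnaseh1 (58.8%) and 4 of 19 that rose (21.1%) held the core. Those that fell include Sf3a1, Sf3a2, Sf3a3, Sf3b2 and Sf3b3, from the subfamily inspected because it leaned downward. The contrast is therefore not separate from that choice. Over all tested genes the shares were close to each other, 19.3% of those that fell and 18.0% of those that rose. Sf3b6 holds the core on both strands and rose, and the core of Sf3a1 ends just before the start site. The GC box GGGCGG, on either strand, went the other way in the spliceosome genes, with 73.7% of those that rose and 41.2% of those that fell, against 52.9% of all tested genes that rose and 63.7% of those that fell. A match is a string of letters, and no binding was measured.

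Of the 5 Prpf genes of the tri-snRNP, 4 fell and 1 rose. Prpf8 (ENSMUSG00000020850.14, chromosome 11, 75486816 to 75509449, plus strand), the large scaffold of the catalytic core, stood at 6.05 and 7.13 TPM with Rnaseh1 against 31.7 and 38.1 TPM with mCherry (-2.24, SE 0.17, adjusted p = 2.9e-05). Prpf31, which joins U4/U6 to U5, had 16.9 and 6.83 TPM against 70.2 and 65.7 TPM (-2.54, SE 0.34, adjusted p = 0.00049). Prpf6, a bridge between the tri-snRNP parts, fell by 1.48 (28.4 and 25.7 TPM against 71.4 and 83.4 TPM) and Prpf4 by 1.07. Prpf3, a protein of the U4/U6 snRNP, rose by 0.60 (89.9 and 80.2 TPM against 59.4 and 52.0 TPM). Outside the tri-snRNP, Prpf38a, which activates the assembled complex, rose by 0.69. Prpf19, the ubiquitin ligase of the activation complex, fell by 1.27 at the low level of 0.26 and 1.32 TPM with Rnaseh1 against 2.82 and 3.43 TPM with mCherry.

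Among the Srsf genes Srsf2 (ENSMUSG00000034120.18, chromosome 11, 116849901 to 116853094, minus strand) stood out, with 110 and 111 TPM in Rnaseh1 oocytes against 27.2 and 26.1 TPM in mCherry oocytes (2.01, SE 0.12, adjusted p = 8.4e-06). It overlaps Mettl23 and Mfsd11 on the opposite strand. Srsf10, Srsf1 and Srsf3 rose by 0.97, 0.94 and 0.57, while Srsf5 fell by 0.87 and Srsf4 by 0.78. For Srsf6, Srsf7, Srsf9 and Srsf11 the change did not pass the threshold. In the U2AF family the subunits parted. U2af2, the large subunit that reads the polypyrimidine tract, had 1.70 and 1.56 TPM with Rnaseh1 against 8.66 and 10.9 TPM with mCherry (-2.03, SE 0.24, adjusted p = 0.00028), whereas U2af1, the small subunit that reads the AG, had 125 and 101 TPM against 63.7 and 66.6 TPM (0.78, SE 0.13, adjusted p = 0.0013). U2af1l4 (ENSMUSG00000078765.11, chromosome 7, 30563301 to 30565365, plus strand), a shorter relative of U2af1, had 143 and 138 TPM against 329 and 311 TPM (-1.18, SE 0.08, adjusted p = 1.3e-05). U2af1l4 overlaps Psenen on the opposite strand and Gm49396 on the same strand, so its reads cannot be fully separated from those of Gm49396. Other annotated genes also overlap Lsm3, Snrpa1, Sf3a3, Sf3b3, Sf3b4, Prpf39, Srsf4 and Srsf11 on the same strand, and Snrpa, Snrpd3, Snrpf, Snrpg, Sf3b2, Sf3b3, Sf3b4, Prpf4b, Prpf6, Prpf31, Prpf39, Prpf40b, Srsf1 and Srsf4 on the opposite strand.

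The genes that rose had shorter transcripts than those that fell. The 21 genes that rose had a median transcript length of 883 bases and a GC content of 47.1%, and the 23 that fell had 1797 bases and 51.9%. Across the 55 genes, Spearman's rho of the log2 fold change was -0.45 with length and -0.39 with GC content; across all tested genes with an annotation, which are not independent replicates, it was -0.11 and -0.53. Median lengths by subfamily were 836 bases for Lsm, 1100 for Snrp, 1454 for Sf3, 2071 for Prpf and 1687 for Srsf genes. The U2af genes had the lowest median length, 760 bases, although 2 of the 3 fell. Lsm7, with 55.7% GC, and Lsm4, with 60.6%, rose although tested genes as a whole leaned lower at high GC content. After a trend with GC content was removed from all genes, 21 of the 55 rose, 18 of them called before, and 19 fell, 15 of them called before, beside 27.2% and 28.6% of all genes. The falls of Sf3a1, Sf3a2, Sf3b2, U2af2, U2af1l4, Prpf19, Prpf40b and Srsf4 and the rises of Lsm5, Prpf38a and Snrpf were no longer called in that fit, in which 7 of 8 Lsm genes rose, all but Lsm5. Summed oocyte markers moved with this comparison too, at 5224 and 5005 TPM with Rnaseh1 against 16987 and 18055 TPM with mCherry, and 9 of the 10 fell; summed somatic markers stood at 59.8 and 54.7 TPM against 84.6 and 84.3 TPM. The part of these differences in the results was not tested.

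**Figure D4:**
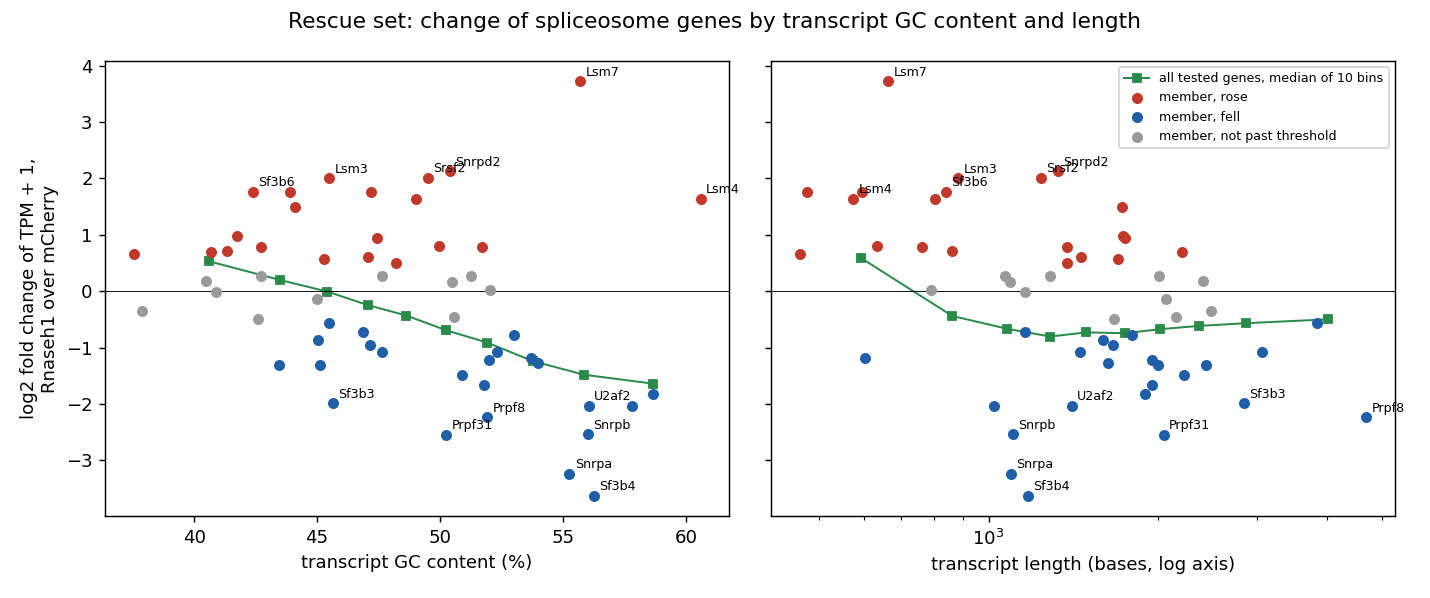
Log2 fold change with Rnaseh1 over mCherry in the rescue set of each spliceosome gene (points, coloured by limma's call) against transcript GC content (left) and length on a log axis (right); green squares give the median of all tested genes in 10 bins of equal gene number. All tested genes lean lower as GC content grows, and Lsm7 and Lsm4 lie above that line while Snrpa, Snrpb and Sf3b4 lie below it.

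Other splicing genes, from lists that earlier results of these data could have shaped, gave a setting for the family. Their counts stand beside 20.3% that rose and 46.2% that fell of all tested genes, and falls in about that share (15 of 31, 7 of 14 and 4 of 8 below) are no result about those lists. Of 31 other snRNP proteins that were tested, 11 rose and 15 fell, among them Snrnp40 (-2.13), a U5 protein, and Puf60 (-2.16), which fell, and Zcrb1 (1.55), a protein of the minor spliceosome, which rose. Factors of the Prp19 complex and the catalytic steps leaned lower, with 3 of 23 that rose and 17 that fell, such as Ctnnbl1 (-2.85) and Ppie (-2.06), while Bud31 (1.16) rose. Of 15 SR-related proteins and SR kinases 3 rose and 9 fell, led by Rnps1 (-2.56), Srpk1 (-1.91) and Clk3 (-2.91). For the assembly machinery of the Sm ring, 2 of 14 rose and 7 fell, with Gemin6 at 1.85, Gemin7 at -1.35 and Smn1 at -1.39. The decapping partners of the Lsm1 ring gave 0 rises and 4 falls of 8, with Patl2 at -2.22, Dcp1a at -1.76 and Edc4 at -3.35. Of 24 hnRNP genes 11 rose and 6 fell, with Hnrnpk at -1.86, Ptbp1 at -3.70 and Ptbp2 at 1.48, and of 4 exon junction genes Rbm8a (2.10), Magoh (1.03) and Magohb (1.29) rose and Eif4a3 fell.

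Adding Supt6 to Rnaseh1 was compared with Rnaseh1 alone, which shares the Rnaseh1 libraries with the comparison above. With Rnaseh1 plus Supt6, 22 of the 55 genes rose and 21 fell against Rnaseh1 alone, beside 41.6% and 17.4% of all tested genes, whose median was 0.44. No Lsm gene rose and 5 of 8 fell, whereas 7 of 9 Sf3 genes rose and 2 fell. The Sf3 rises were 2 after median centring, 3 after quantile normalization and 4 with the GC trend removed, and the Sf3 median of 0.65 became 0.13, 0.13 and 0.09 in these fits. Without Rnaseh1 plus Supt6 replicate 2, 4 Sf3 genes rose. The Lsm falls were 6, 7 and 7 in the same 3 fits. Snrp genes gave 4 rises and 6 falls, Prpf genes 7 and 3, Srsf genes 2 and 4, and U2af genes 2 and 1. Centring turned the split to 12 that rose and 25 that fell (26.2% and 30.0% of all genes), quantile normalization to 13 and 26 (27.0% and 29.1%) and removal of the GC trend to 16 and 21 (25.5% and 24.3%). Without Rnaseh1 plus Supt6 replicate 2, 14 genes rose.

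Lsm7 had 550 and 463 TPM with Rnaseh1 plus Supt6 against 3271 and 2910 TPM with Rnaseh1 (-2.61, SE 0.10, adjusted p = 2.9e-06). Lsm3 had 704 and 696 TPM against 2424 and 2352 TPM (-1.77), and Snrpe 758 and 663 TPM against 2116 and 1977 TPM (-1.53). In all 3 genes both libraries with Supt6 lay far below both with Rnaseh1 alone. Sf3b4 had 16.0 and 14.6 TPM with Rnaseh1 plus Supt6 against 2.03 and 0.42 TPM with Rnaseh1 (2.97, SE 0.35, adjusted p = 0.0003). Snrpa had 63.7 and 67.5 TPM against 14.0 and 4.42 TPM (2.88, SE 0.41), and Snrpb 14.5 and 15.6 TPM against 1.58 and 2.53 TPM (2.41, SE 0.22). For these 3 the libraries with Supt6 lay above both with Rnaseh1 alone. Lsm4 was not past the threshold, with 12.1 and 15.0 TPM against 14.4 and 14.0 TPM (-0.06, SE 0.23, adjusted p = 0.83). Summed oocyte markers were 17305 and 18183 TPM with Rnaseh1 plus Supt6 against 5224 and 5005 TPM with Rnaseh1, and their part in these differences was not tested.

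Against mCherry, Rnaseh1 plus Supt6 left few calls. Of the 55 genes 6 rose and 4 fell, beside 5.71% and 7.6% of all tested genes, whose median was -0.04. The genes that rose were Lsm4 (1.58), Lsm7 (1.11), Sf3b6 (0.81), Snrpd2 (0.69), Snrpa1 (0.51) and U2af1l4 (0.30), and those that fell were U2af2 (-1.19), Sf3a2 (-1.11), Sf3a1 (-0.75) and Prpf38b (-0.53). Lsm7 stood at 550 and 463 TPM with Rnaseh1 plus Supt6 against 240 and 226 TPM with mCherry (SE 0.10, adjusted p = 0.0028), and it was called in every alternative setting. U2af2 stood at 3.23 and 4.23 TPM against 8.66 and 10.9 TPM (SE 0.24, adjusted p = 0.024). Prpf8, at 21.3 and 23.4 TPM against 31.7 and 38.1 TPM, and Prpf31, at 27.9 and 29.2 TPM against 70.2 and 65.7 TPM, had libraries that did not overlap but did not pass the threshold (adjusted p = 0.061 for each). The counts depend on single libraries: 1 gene rose and 0 fell without either Rnaseh1 plus Supt6 library or without mCherry replicate 1, 2 rose and 0 fell without mCherry replicate 2, and 10 rose and 10 fell without either Rnaseh1 library, which leaves both groups compared whole and alters the estimate of the spread.

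In the NSN and SN table no gene of the transcriptome passed limma's threshold in any of its 5 comparisons, 0.0% of 12736 tested genes in each direction, and so 0 of the 54 spliceosome genes tested there. At an unadjusted p under 0.05, Rnaseh1 against mCherry gave 3.66% higher and 3.09% lower of all genes in SN oocytes and 1.11% higher and 1.66% lower in NSN oocytes, and 0 of the 54 in either. The values are therefore given as a description. In SN oocytes the Lsm median was 0.59 and the Sf3 median -0.53, beside -0.22 for all genes. In NSN oocytes they were 0.55 and -0.25, beside -0.29 for all genes. These medians depend on single libraries. In SN oocytes the Lsm median was 0.05 without SN mCherry replicate 2 (Sf3 -0.25, all genes -0.08), 0.998 without SN mCherry replicate 1 and 0.31 without SN Rnaseh1 replicate 1, and the Sf3 median was -0.29 without SN Rnaseh1 replicate 2. In NSN oocytes the Lsm median was 0.22 without NSN Rnaseh1 replicate 2 (Sf3 0.04, all genes 0.01), 0.85 without NSN Rnaseh1 replicate 1 (Sf3 -0.71) and 0.35 without NSN mCherry replicate 1 (Sf3 -0.41), and the Sf3 median was -0.09 without NSN mCherry replicate 2. Lsm7 stood at 1362 and 1047 TPM in SN Rnaseh1 oocytes against 1087 and 247 TPM in SN mCherry oocytes, and at 922 and 3280 TPM in NSN Rnaseh1 oocytes against 573 and 846 TPM in NSN mCherry oocytes. The groups overlapped in SN and not in NSN oocytes (1.20, SE 0.80 and 1.32, SE 0.80).

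**Figure D5:**
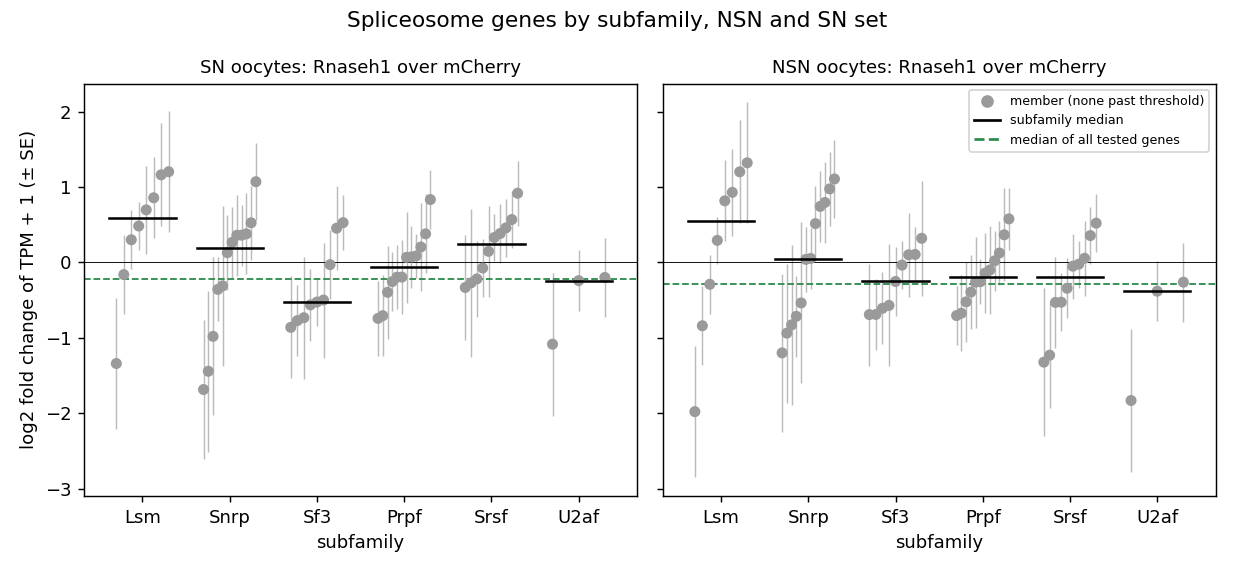
Log2 fold change of TPM + 1 (points, ± SE) with Rnaseh1 over mCherry for each gene by subfamily in SN (left) and NSN oocytes (right), with black bars for subfamily medians and a dashed line for the median of all tested genes. None of the 54 genes passes the threshold, and the Lsm medians of 0.59 and 0.55 lie above the dashed lines. They are 0.05 without SN mCherry replicate 2 and 0.22 without NSN Rnaseh1 replicate 2, and 0.998 and 0.85 without replicate 1 of these groups.

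Libraries that did not overlap between Rnaseh1 and mCherry were found for 12 higher and 11 lower of the 54 genes in SN oocytes, beside 18.9% and 31.7% of all tested genes, and for 9 higher and 10 lower in NSN oocytes, beside 10.3% and 22.6%. Such counts are not far from the shares of all genes and are no result about the 54 genes. The genes are named as a description, and their spread over the subfamilies was not tested. All 9 of the higher genes in NSN oocytes were Lsm or Sm ring genes (Lsm3, Lsm5, Lsm6, Lsm7, Snrpd1, Snrpd2, Snrpe, Snrpf and Snrpg), while Lsm2 and Lsm4 were among the lower ones. In SN oocytes 6 of the 12 higher genes were of these rings (Lsm3, Lsm5, Lsm8, Snrpd1, Snrpd3 and Snrpe), and the others were Srsf2, Srsf3, Srsf10, Srsf11, Sf3b1 and Prpf38b; Lsm4 and Snrpb were among the lower ones. Snrpe stood at 2033 and 1546 TPM in SN Rnaseh1 oocytes against 1125 and 633 TPM in SN mCherry oocytes, and at 1306 and 3308 TPM in NSN Rnaseh1 oocytes against 894 and 1040 TPM in NSN mCherry oocytes. Its groups did not overlap in either stage (1.07, SE 0.51 and 1.11, SE 0.51), and limma's adjusted p was 0.61 and 0.76. U2af1l4 had 228 and 285 TPM in SN Rnaseh1 oocytes against 537 and 546 TPM in SN mCherry oocytes, and 499 and 43.9 TPM in NSN Rnaseh1 oocytes against 547 and 518 TPM in NSN mCherry oocytes. Here too the Rnaseh1 libraries lay below both mCherry libraries in each stage. Lsm4 was lower with Rnaseh1 in every library, with 27.7 and 50.6 TPM against 76.8 and 121 TPM in SN and 70.1 and 8.42 TPM against 125 and 81.8 TPM in NSN oocytes (-1.34, SE 0.87 and -1.98, SE 0.87), unlike its rise in the rescue set; neither value passed.

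The 2 libraries of NSN Rnaseh1 oocytes, and those of SN mCherry oocytes, differed from each other in many of these genes. NSN Rnaseh1 replicate 2 had Lsm3 at 5718 TPM against 1446 TPM in replicate 1, Snrpa at 5.51 against 37.0 TPM and Snrpn at 0.40 against 15.5 TPM, and its summed oocyte markers were 5273 TPM against 13040 TPM. Rnaseh1 itself was 229 TPM in that library and 745 TPM in replicate 1. With replicate 2 as the only NSN Rnaseh1 library, whose spread is then assumed to be that of the other groups, 3 genes rose (Lsm3 2.19, Snrpe 1.78 and Snrpd1 1.67) and 5 fell (U2af1l4 -3.57, Lsm4 -3.44, Snrpn -2.98, Lsm2 -1.61 and Snrpd3 -1.52), beside 0.794% and 8.44% of all tested genes. SN mCherry replicate 2 had Lsm7 at 247 TPM against 1087 TPM in replicate 1 and Snrpa at 78.2 against 17.4 TPM, and its summed oocyte markers were 18661 TPM against 6423 TPM. Its Lsm7 level and summed oocyte markers lay near those of the rescue mCherry libraries (Lsm7 240 and 226 TPM, summed oocyte markers 16987 and 18055 TPM). Other genes did not, such as Lsm4 at 121 TPM against 3.11 and 4.75 TPM in those libraries. In replicate 1, Lsm7 and the summed oocyte markers lay near the SN Rnaseh1 libraries (Lsm7 1362 and 1047 TPM, summed oocyte markers 6168 and 6420 TPM). Other genes did not there either, with Rnaseh1 at 81.0 TPM against 1361 and 1083 TPM. U2af1l4 was at 537 TPM against 228 and 285 TPM. Which library represents its group was not tested. In both pairs of libraries the summed Lsm level was higher where the oocyte markers were lower, and the part of that difference in these values was not tested.

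The stage comparisons asked how SN oocytes differ from NSN oocytes. With mCherry the median of the 54 genes was -0.04 in SN over NSN oocytes, beside -0.03 for all genes, and with Rnaseh1 it was 0.04, beside 0.02. Lsm8 stood at 25.1 and 11.9 TPM in SN mCherry oocytes against 39.4 and 58.4 TPM in NSN mCherry oocytes (-1.42), and at 36.5 and 28.4 TPM in SN Rnaseh1 oocytes against 56.3 and 129 TPM in NSN Rnaseh1 oocytes (-1.38). Lsm1 stood at 30.5 and 18.9 TPM in SN mCherry oocytes against 57.1 and 72.5 TPM in NSN mCherry oocytes (-1.38). Both genes were lower in these SN libraries without overlap, at an unadjusted p under 0.05 (limma) and not past the adjusted threshold. The share of all genes without overlap was not counted for the stage comparisons. In all, 2 of the 54 genes reached that unadjusted level with mCherry, both lower, beside 0.416% higher and 2.16% lower of all genes, and 1 with Rnaseh1, lower, beside 2.22% and 2.36%. With mCherry it was 1 gene after median centring, quantile normalization or the replicate block. Counts this close to the shares of all genes are no result about the Lsm rings. For the effect of Rnaseh1 in SN oocytes minus that in NSN oocytes (limma), 0 of the 54 genes passed the adjusted threshold and 0 had an unadjusted p under 0.05, beside 1.47% higher and 0.793% lower of all genes.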

How the data were processed

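Per the labels' protocols, oocyte RNA was reverse-transcribed (SuperScript II), amplified (KAPA HiFi polymerase) and made into libraries (Vazyme TD503). The authors deposited TPM per gene and library in 2 tables. The submitters' processing notes name STAR 2.7.0d, RSEM 1.3.3, Trim Galore 0.6.7, the mm10 build and DESeq2 without their roles. Symbols, biotypes, coordinates, transcript GC content and length came from GENCODE M21 (GRCm38); of 35389 identifiers, 34611 matched with their version, 708 without it and 70 were not paired. The values of 1 of the 55 genes are counted but not reported by name here.

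In R 4.3.3, log2(TPM + 1) of each table was fitted separately by limma 3.58.1 (lmFit, contrasts.fit, trended eBayes), with all groups sharing 1 estimate of the spread, over genes with at least 1 TPM in at least 2 libraries. Adjusted p-values are Benjamini-Hochberg over all tested genes, with a threshold of 0.05. Fold changes on this scale understate those of low genes. "Rose" and "fell" mark genes past the threshold. TPM holds no read depth, so no counting error is given. RSEM divides reads between near-identical copies, so small Sm and Lsm genes with processed pseudogenes are uncertain. Strand use is not stated.

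Members, companion lists and settings were chosen with earlier results of these data known. All Sm ring, Lsm, SF3 and U2AF genes are named; of the other Snrp, Prpf and Srsf genes, up to 5 per comparison with the smallest p and those at the ends of levels and ranges; of each companion list, up to 3 with the smallest p. Prpf4, Prpf19, Prpf3 and further genes of small groups were named after their values were seen. Promoter windows and sequences are RefSeq's (GRCm38.p6), and motifs were searched as exact letters on both strands. Simulated data with 200 changed genes were used to check the fit. Alternatives were pseudocounts of 0.1 and 5, no filter, at least 5 TPM, median centring, quantile normalization, removal of a GC trend, the replicate number as a block, the groups compared alone, and leaving out libraries.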

Additional observations from a re-analysis of the deposited data

How the results depend on the processing

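In the rescue set, 21 genes that rose and 23 that fell with Rnaseh1 over mCherry became 18 to 21 and 22 to 24 when single libraries were left out. With Rnaseh1 plus Supt6 over Rnaseh1, 14 to 22 rose and 16 to 19 fell without single libraries, 12 rose under median centring and 13 under quantile normalization, against 22. Of the calls in Rnaseh1 plus Supt6 over mCherry, the 4 falls became 2 with a pseudocount of 0.1, 7 with 5, 1 without a filter, 2 once the GC trend was removed and 1 where the replicate block was added as well; fitted on the groups compared alone, 10 rose and 11 fell, and without single libraries 1 to 10 rose and 0 to 10 fell. In the NSN comparison of Rnaseh1 with mCherry, 0 to 3 rose and 0 to 5 fell without single libraries. For SN over NSN with Rnaseh1, 0 to 1 rose without single libraries, and 1 (Snrpa) fell with replicate 2 of both NSN Rnaseh1 and SN mCherry left out. The cause of these shifts was not tested, except that leaving out a library leaves fewer samples.

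Replicate numbers did not pair the libraries. Same-numbered libraries correlated in their deviations from group means at -0.51 to 0.17 in the first table and -0.0005 to 0.04 in the rescue table. With the replicate block, 21 rose and 23 fell for Rnaseh1 over mCherry, 21 and 20 for Rnaseh1 plus Supt6 over Rnaseh1, 7 and 3 for Rnaseh1 plus Supt6 over mCherry, and 0 in the NSN and SN set.

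Some single genes changed sign. For Rnaseh1 over mCherry, removal of the GC trend, with or without the block, put Lsm5 at -0.092, Sf3b1 at -0.33, Srsf4 at 0.34 and U2af1l4 at 0.039, centring put Prpf38b at 0.44, Sf3b5 at 0.028 and Snrpb2 at 0.58, and quantile normalization put Prpf38b at 0.49 and Sf3b5 at 0.15. For Rnaseh1 plus Supt6 over Rnaseh1, removal of the GC trend put Lsm2 at -0.52, Lsm5 at 0.10, Sf3a1 at -0.32, Sf3a2 at -0.31, Sf3b1 at 0.086, Sf3b2 at -0.18, Snrpb2 at 0.37, Srsf4 at -0.74 and U2af2 at -0.33, centring put Sf3a1 at -0.035 and Sf3b5 at -0.043, and quantile normalization put Prpf18 at -0.051, Sf3a1 at -0.095 and Sf3b5 at -0.12. Some of these values passed the threshold in the new direction, none of them called in the main fit. For Rnaseh1 over mCherry they were Sf3b1 with the GC trend removed, Snrpb2 after centring, and Prpf38b after centring and quantile normalization. For Rnaseh1 plus Supt6 over Rnaseh1 they were Lsm2, Snrpb2 and Srsf4 with the GC trend removed. Depth is unknown, so genes near 1 TPM, such as Sf3a2, Prpf4, Prpf19 and Prpf40b, are the least certain.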
